A study of Mus musculus with 35 samples.

Results

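*Foxs1*, *Foxd1*, *Foxc1*, *Foxf2*, *Tbx2*, *Tbx18*, *Ebf1*, *Zic1*, *Twist1* and *Nr2f2* are 10 transcription factor genes associated with mural cells, the pericytes and smooth muscle cells that wrap blood vessels. They were taken as a named list, chosen with earlier results of these data known. All 10 were found among the 53465 genes of the bulk table and among the 24262 genes of the single-cell files. The study sorted cells of E14.5 mouse brain by FACS into neural cells (negative for every sorted marker), mural cells (PDGFRβ high), endothelial cells (PECAM1 and CD102 positive) and microglia (CD45 medium). Bulk RNA-seq covered these 4 populations from each of 3 wild-type brains, in 12 libraries. Their names join population and brain (Mu-340, Mu-343 and Mu-346 for mural cells, and N, Ec and Mi for neural cells, endothelial cells and microglia), and values follow that order of brains. Single-cell RNA-seq by mCEL-Seq2, in which molecular identifiers tell transcripts of a well apart, covered 3 wild-type plates with a sort gate for each well but 37, of which none passed the transcript minimum, and 3 plates of *Mof* knockout brains (plates 4, 5 and 6) for which no gate was given. *Mof* is *Kat8*, a histone acetyltransferase gene. The labels give neither the allele nor a Cre driver for the knockout, and no strain or sex for any sample.

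Forkhead (Fox) proteins bind DNA through a winged-helix domain, and T-box (Tbx), EBF, ZIC, TWIST and NR2F proteins each belong to another family of DNA-binding regulators. Several of them mark the mesenchyme, and mural cells of the forebrain are known to descend largely from the neural crest. FOXC1 and FOXF2 are known from human and mouse genetics as regulators of brain pericytes and of the blood-brain barrier, TBX18 is a classical marker of mural cells, EBF1 is best known from B cells, NR2F2 (COUP-TFII) from veins, and ZIC1 and TWIST1 from neural and mesenchymal development.

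The bulk libraries held 17638358 to 98414914 reads on genes, and values are given as the normalized counts that the authors deposited. The labels were checked against marker lists. In the mural libraries, 9 of 10 mural markers had their highest mean, and the summed list lay between 709031 and 766407 normalized counts against at most 7141 elsewhere. Of 7 endothelial and 7 microglia markers, each was highest in its own population. Of 10 fibroblast markers, 7 were also highest in the mural libraries, where the list summed to 9149 to 12411 against at most 370 in the others. *Col3a1* (5837 ± 922), *Islr* (312 ± 167), *Dcn* (103 ± 48.2) and *Lum* (47.8 ± 77.9) were among these 7. *Pdgfra* was at 0.313 ± 0.542 in mural libraries, and *Dpt* was at 0 in all 12 libraries. The part of such cells in the values below was not tested. RNA of neural cells was made into libraries with another kit than that of the other populations, so kit and population cannot be told apart for neural cells.

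All 10 factors were higher in mural cells than in the mean of the other 3 populations (limma on log2 of the normalized count + 1, Benjamini-Hochberg adjusted p under 0.05), a call made for 19.3% of the 19765 genes tested. The differences ran from 3.17 for *Zic1* to 9.74 for *Foxs1* on the log2 scale. Of the 10, 9 were over 10-fold higher, against 4.99% of all genes, and *Zic1* was not. As the list was chosen with earlier results of these data known, these counts are not independent support for it. The reference here is a mean of log2 values, in which populations near 0 weigh heavily. Against the plain mean of the 9 other libraries, the mural mean was over 10 times higher only for *Foxs1*, *Foxd1*, *Tbx2*, *Tbx18* and *Twist1*, and 8.74 times higher for *Ebf1*, 5.24 for *Nr2f2*, 3.77 for *Foxc1*, 3.09 for *Foxf2* and 1.03 for *Zic1*. The median difference of the factors was 6.74, or 6.33 with *Twist1* set to its floor where it was listed at 0, beside a median of -0.10 over all genes tested. For 7 factors the 3 mural libraries all lay above the 9 others, as for 7.25% of genes. The other 3 were *Foxc1* and *Foxf2*, which overlapped with endothelial cells, and *Zic1*, which was lower than in neural cells.

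**Figure D1:**
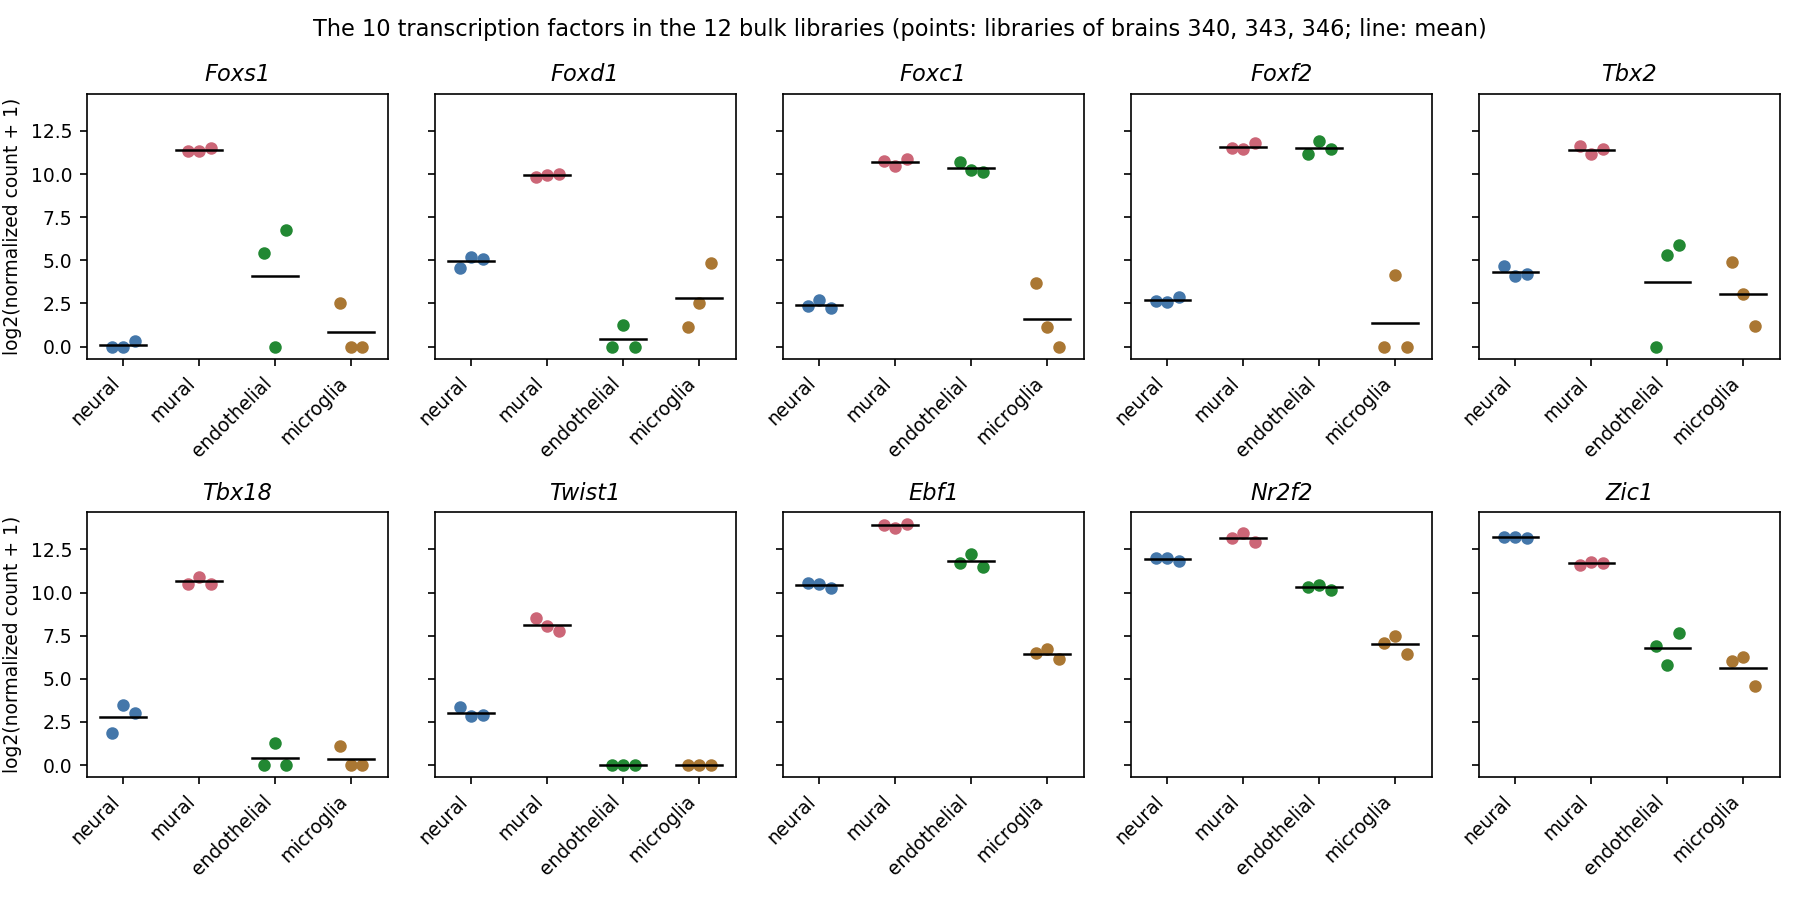
Each panel shows 1 factor in the 12 bulk libraries, on the y axis as log2(normalized count + 1). Points are libraries (3 a population) and lines their means. *Foxs1*, *Foxd1*, *Tbx2*, *Tbx18* and *Twist1* are high in mural libraries and at most at 109 normalized counts elsewhere, *Foxc1* and *Foxf2* in mural and endothelial libraries, and *Zic1* is highest in neural libraries.

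*Foxs1*, *Foxd1*, *Tbx2*, *Tbx18* and *Twist1* were abundant in mural cells and low in the other populations, with at most 109 normalized counts in any library. *Foxs1* (ENSMUSG00000074676) lies on chromosome 2 of GRCm38 from 152931898 to 152933208. It had 2633, 2617 and 2950 normalized counts in Mu-340, Mu-343 and Mu-346, a mean of 2734 ± 188 (SD, n = 3). In endothelial cells it had 42.5, 0 and 109, in microglia 4.75, 0 and 0, and in neural cells 0, 0 and 0.264, which is 1 read. The mural libraries stood apart, while the endothelial libraries were scattered. The mean in mural cells was 54.3 times that in endothelial cells (log2 difference 7.34, SE 1.45, adjusted p = 0.0033). Set against the single neural read, the ratio was 17180 with an exact 95% counting interval of 3083 to 678619. Endothelial cells were also above neural cells (adjusted p = 0.037), a call that ended without the brain of Mu-340 (0.24), without that of Mu-346 (0.27) and with no filter on low values (0.055), over a range of 0.00042 to 0.27 in all alternatives.

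*Foxd1* (ENSMUSG00000078302, chromosome 13 from 98354242 to 98359305), known from kidney stroma, had 916, 996 and 1037 normalized counts in the mural libraries. Neural cells had 22.7, 35.4 and 32.5, microglia 1.19, 4.74 and 27.7, and endothelial cells 0, 1.42 and 0. Mural cells were 32.5 times above neural cells (log2 difference 5.0, SE 0.87, adjusted p = 0.00058). Among the other populations, the difference between neural cells and microglia did not pass the test (adjusted p = 0.056). Nor did that between microglia and endothelial cells (0.055). Over the alternatives these ran from 0.017 to 0.26 and from 0.01 to 0.36.

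*Tbx2* (ENSMUSG00000000093, chromosome 11 from 85832551 to 85841948), a repressor known from heart and limb development, had 3140, 2251 and 2829 normalized counts in mural cells. In the other populations no library exceeded 57.3, and the 3 populations did not differ from each other (adjusted p of 0.45 to 0.76; without the brain of Mu-340, endothelial cells against microglia gave 0.022, the lowest of all alternatives). The mean in mural cells was 85.9 times that in endothelial cells (log2 difference 7.69, SE 1.39, adjusted p = 0.0019).

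*Tbx18* (ENSMUSG00000032419, chromosome 9 from 87702800 to 87731260) had 1463, 1928 and 1466 normalized counts in mural cells, a mean of 1619 ± 267 (SD, n = 3). Neural cells had 2.67, 9.97 and 7.13, and endothelial cells and microglia 1 read each over 3 libraries. Mural cells were 246 times above neural cells (log2 difference 7.86, SE 0.66, adjusted p = 3e-06). Against the single reads, the ratios were 3014 (exact 95% counting interval 541 to 119054) for endothelial cells and 3867 (694 to 152764) for microglia. The low neural level was still above that of endothelial cells (adjusted p = 0.01), which ended without the brain of Mu-346 (0.11, the highest of all alternatives).

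*Twist1* (ENSMUSG00000035799, chromosome 12 from 33957671 to 33959829), a bHLH factor of mesenchyme and neural crest, had 365, 268 and 215 normalized counts in mural cells. Neural cells had 9.35, 6.09 and 6.34, and the mural mean was 39 times the neural one (log2 difference 5.09, SE 0.48, adjusted p = 6.6e-06). All endothelial and microglia libraries were at 0 reads. With reads pooled over libraries, and against a floor of 3 reads over the 3 libraries, mural cells were at least 198-fold higher than endothelial cells. They were at least 254-fold higher than microglia.

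*Foxc1* and *Foxf2* were abundant in both mural and endothelial cells, and 3 libraries of each did not show a difference between them. *Foxc1* (ENSMUSG00000050295, chromosome 13 from 31806633 to 31812476) had 1756, 1421 and 1873 normalized counts in mural and 1660, 1229 and 1104 in endothelial libraries. The difference of 0.35 on the log2 scale (95% interval -1.38 to 2.08) did not pass the test (adjusted p = 0.79). *Foxf2* (ENSMUSG00000038402, chromosome 13 from 31625816 to 31631403) had 2934, 2758 and 3547 in mural and 2302, 3821 and 2825 in endothelial libraries, a difference of 0.07 (95% interval -1.96 to 2.10, adjusted p = 0.98). For both genes the ranges overlapped. These intervals leave room for differences of about 4-fold, but they rest on a spread shared by all 12 libraries, not on these 2 populations alone. By brain, mural minus endothelial cells was 0.08, 0.21 and 0.76 for *Foxc1* and 0.35, -0.47 and 0.33 for *Foxf2*. Neural cells and microglia were at most at 16.6 normalized counts of either gene, and endothelial cells exceeded neural cells by 7.94 (SE 0.78) for *Foxc1* and 8.80 (SE 0.92) for *Foxf2* on the log2 scale (adjusted p = 9.5e-06 and 1.4e-05). The pair are neighbours, with 175229 bases from the end of *Foxf2* to the start of *Foxc1*. Endothelial markers summed to 2186 to 3805 normalized counts in mural libraries against 159546 to 192990 in endothelial ones, and mural markers to 4074 to 7141 in endothelial libraries.

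*Ebf1* and *Nr2f2* were found in all populations and were graded. *Ebf1* (ENSMUSG00000057098, chromosome 11 from 44617317 to 45008091) had 15631, 13969 and 16077 normalized counts in mural cells. Endothelial cells had 3399, 4910 and 2869, neural cells 1512, 1470 and 1254, and microglia 88, 104 and 69.2. Each step in this order passed the test. Mural exceeded endothelial cells by 2.07 (SE 0.22, adjusted p = 4.9e-05), endothelial exceeded neural cells by 1.37 (SE 0.22, 0.00031), and neural cells exceeded microglia by 4.02 (SE 0.22, 9e-08) on the log2 scale.

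*Nr2f2* (ENSMUSG00000030551, chromosome 7 from 70351944 to 70366735) had 9253, 11434 and 7688 normalized counts in mural, 4168, 4155 and 3697 in neural, 1285, 1414 and 1119 in endothelial libraries and 136, 180 and 85.6 in microglia. No 2 populations overlapped. Mural cells were 2.36 times above neural cells (log2 difference 1.22, SE 0.25, adjusted p = 0.0019), neural above endothelial cells by 1.66 (SE 0.25, 0.00023) and endothelial cells above microglia by 3.30 (SE 0.25, 2.1e-06). *Nr2f2* thus differed from *Ebf1* in which population came second.

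*Zic1* (ENSMUSG00000032368, chromosome 9 from 91358058 to 91365810) was the exception, as neural cells had the most. Their libraries had 9699, 9508 and 9348 normalized counts, mural libraries 3057, 3522 and 3418, endothelial libraries 117, 53.9 and 199, and microglia 64.2, 75.9 and 22.7. The neural and mural libraries did not overlap, and the neural mean was 2.86 times the mural one (log2 difference of mural minus neural cells -1.52, SE 0.49, adjusted p = 0.022). This call ended without the brain of Mu-340 (0.17), without that of Mu-343 (0.051) and with quantile normalization (0.092), and the adjusted p ran from 0.0015 to 0.17 over all alternatives. The SE and p-value rest on a spread shared by all 12 libraries, with the scattered endothelial and microglia libraries among them. By brain, mural minus neural cells was -1.67, -1.43 and -1.45. Mural cells exceeded endothelial cells by 4.93 (SE 0.49, adjusted p = 3.3e-05). Beside the mural *Zic1*, *Dcx* and *Tubb3* of young neurons had 489 ± 292 and 1109 ± 234 normalized counts in mural against 34247 ± 2403 and 31995 ± 2226 in neural libraries, while *Fabp7*, which is not limited to neural cells, was highest in mural libraries (26942 ± 8241). *Neurod6*, *Sox2* and *Gad2* had 594 ± 475, 286 ± 97.03 and 361 ± 442 in mural against 9229 ± 620, 4440 ± 164 and 3360 ± 188 in neural libraries. The part of neural RNA in the mural value was not tested.

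Exons of *Foxf2*, *Tbx18*, *Zic1* and *Nr2f2* overlap with those of genes on the opposite strand, by 98 bases with *Gm27516*, 970 with *D030062O11Rik*, 60 with *Zic4* and 643 with *B130024G19Rik*. Whether reads were counted by strand is not given in the sources used here, so reads from those stretches cannot be told apart. In bulk libraries, fewer cells with a transcript and fewer transcripts per cell cannot be told apart either.

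Between genes, levels were compared per kilobase of exon. In mural cells *Foxs1* was highest with 2085 normalized counts per kilobase, as its exon is only 1311 bases long, followed by *Ebf1* (1561), *Foxf2* (1303), *Nr2f2* (1097), *Tbx2* (756), *Zic1* (585), *Tbx18* (343.1), *Foxc1* (288), *Foxd1* (194) and *Twist1* (174). The ranges of the 3 libraries overlapped between *Ebf1* and *Foxf2*, between *Foxf2* and *Nr2f2*, between *Tbx18* and *Foxc1* and between *Foxd1* and *Twist1*, so these neighbours have no clear order. In endothelial cells *Foxf2* led with 1262 per kilobase, before *Ebf1* (382) and *Foxc1* (228). In neural cells *Zic1* led with 1672, before *Nr2f2* (465) and *Ebf1* (145).

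Pairwise, 46 of 60 tests between 2 populations were called for the 10 factors, against 45% of all tests of this kind. Higher in mural cells were all 10 factors against microglia (17.9% of genes), 9 against neural cells (25.8%) and 8 against endothelial cells (13.5%), and *Zic1* was lower than in neural cells (28.7%). Away from mural cells, 9 of 10 differed between endothelial and neural cells (57.7%), 4 between endothelial cells and microglia (32.4%) and 5 between neural cells and microglia (59.8%).

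**Figure D2:**
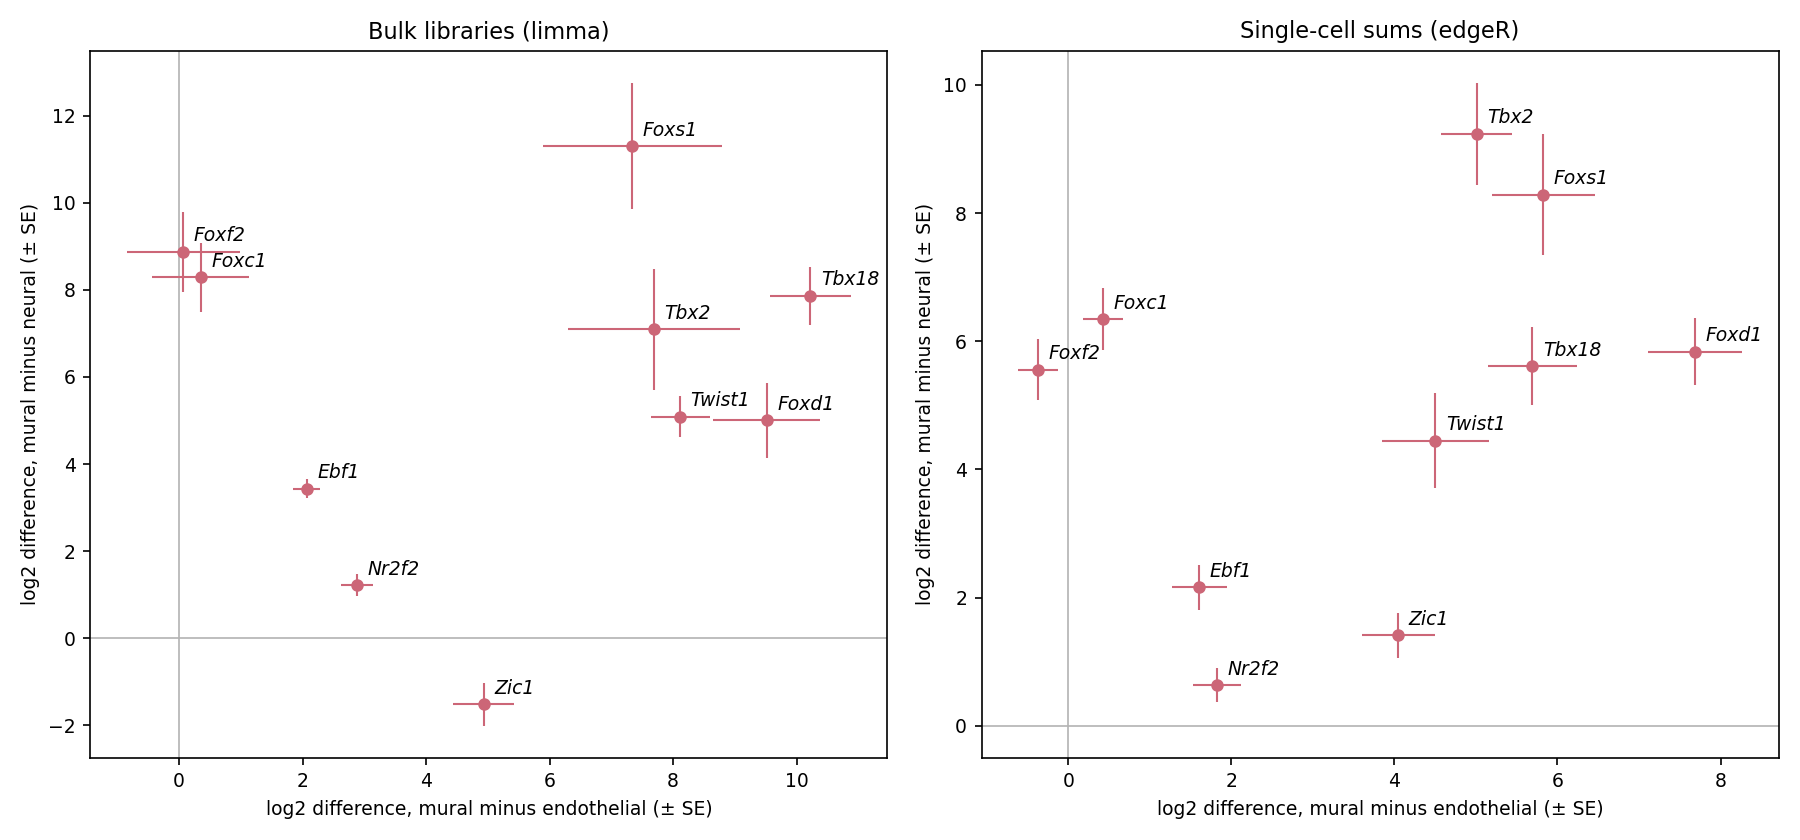
Log2 differences of mural minus endothelial cells (x) and mural minus neural cells (y) with standard errors, in bulk libraries (left) and in single-cell sums (right). *Foxc1* and *Foxf2* lie between -0.37 and 0.43 on the x axis in both assays, and *Zic1* is at -1.52 on the y axis in bulk libraries and at 1.41 in single-cell sums.

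For 8 of the 10 factors the RefSeq table of promoters for GRCm38.p6 held an entry, 9 in all, and *Foxs1* and *Tbx2* were not among them. Upstream sequence is shown for *Foxc1* and *Foxf2*, the neighbours that were high in both vessel populations, and for *Tbx18* and *Twist1*, which were high in mural cells only. Each runs 5′ to 3′ on the strand of its gene up to its first annotated base, and capitals mark motif matches. *Foxc1* is chr13:31806396-31806632 (plus strand), *Foxf2* chr13:31625566-31625815 (plus), *Tbx18* chr9:87731261-87731510 (minus) and *Twist1* chr12:33957421-33957670 (plus).
Foxc1: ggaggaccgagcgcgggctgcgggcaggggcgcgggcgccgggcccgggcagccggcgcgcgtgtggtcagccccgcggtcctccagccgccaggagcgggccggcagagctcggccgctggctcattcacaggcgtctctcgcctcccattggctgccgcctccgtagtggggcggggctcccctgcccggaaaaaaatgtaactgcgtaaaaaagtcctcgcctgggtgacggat
Foxf2: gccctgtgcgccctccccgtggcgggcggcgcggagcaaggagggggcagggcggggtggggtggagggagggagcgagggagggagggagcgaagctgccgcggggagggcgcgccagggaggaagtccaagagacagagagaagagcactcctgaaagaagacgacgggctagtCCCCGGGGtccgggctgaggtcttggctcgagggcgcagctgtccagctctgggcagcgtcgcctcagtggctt
Tbx18: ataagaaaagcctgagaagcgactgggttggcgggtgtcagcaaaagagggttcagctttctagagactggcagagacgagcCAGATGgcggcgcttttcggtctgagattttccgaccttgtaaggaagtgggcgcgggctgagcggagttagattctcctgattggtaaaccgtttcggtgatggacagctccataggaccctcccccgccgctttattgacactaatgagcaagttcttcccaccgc
Twist1: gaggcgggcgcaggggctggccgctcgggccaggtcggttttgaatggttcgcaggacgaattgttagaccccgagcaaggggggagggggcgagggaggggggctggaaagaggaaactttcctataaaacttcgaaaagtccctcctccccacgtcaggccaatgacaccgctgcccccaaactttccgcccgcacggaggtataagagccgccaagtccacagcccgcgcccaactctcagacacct

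The 250 bases before the start were searched on both strands for GTAAACA (forkhead), GGTGTGA (T-box), CCCNNGGG (EBF), CAGCAGG (ZIC), CAGATG (E-box bound by TWIST dimers) and AGGTCA (nuclear receptor core site). The 9 promoters held 3 matches. *Foxf2* had an EBF match that starts 74 bases before the start site, *Tbx18* an E-box 168 bases before it, and the second *Ebf1* promoter a T-box match on the minus strand 78 bases before it. Of all 32851 promoters, 11.8% held the EBF letters, 14.4% the E-box, 3.33% the T-box, 3.17% the forkhead, 8.44% the ZIC and 14.0% the nuclear receptor letters in the same window. *Foxc1* and *Foxf2* were 70.8% and 71.6% G or C, against a median of 52.4% over all promoters, *Twist1* 62.4% and *Tbx18* 54.0%.

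In single cells, all 10 factors were again higher in the mural gate, and *Zic1* was higher there than in neural cells too. With more than 1500 transcripts, 210 cells of the mural gate, 225 of the endothelial, 128 of the microglia and 123 of the neural gate were kept. Transcripts were summed per gate and plate, and plates served as replicates; whether a plate holds cells of 1 brain is not stated, so p-values measure the spread between plates. Plate 3 gave only 10 mural cells. Against the mean of the other gates, all 10 passed the test (edgeR's quasi-likelihood test, Benjamini-Hochberg adjusted p of 3.5e-22 to 2e-11), a call made for 13.5% of 9281 genes tested. Of them, 9 were over 10-fold higher, against 2.96% of genes, and *Nr2f2* was not (log2 difference 2.90, SE 0.26). Pair by pair, higher in the mural gate were all 10 against microglia (18.8% of genes), 9 against neural cells (15.4%) and 8 against endothelial cells (9.17%). Endothelial and neural cells differed in 5 factors (36.4%), endothelial cells and microglia in 5 (36.2%), and neural cells and microglia in 3 (44.3%). Without plate 1, endothelial and neural cells no longer differed in *Tbx2* (adjusted p = 0.59, over a range of 0.027 to 0.59 in all alternatives), *Zic1* (0.11, range 2.2e-12 to 0.18) and *Nr2f2* (0.47, range 5.8e-05 to 0.47). The *Tbx2* call, which rests on a gate at 0 transcripts, also ended with DESeq2 (0.18), with no filter (0.063) and without plate 2 (0.13), that of *Zic1* with DESeq2 (0.18) and that of *Nr2f2* without plate 2 (0.13). Between endothelial cells and microglia, the *Zic1* call ended after thinning (0.05), without plate 1 (0.053) and without plate 3 (0.061), over a range of 0.0075 to 0.061. After every cell was thinned to 1500 transcripts, 6 of the 10 could be tested and all 6 were called, while *Foxs1*, *Tbx2*, *Tbx18* and *Twist1* had too few transcripts left for the test.

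The share of mural-gate cells with at least 1 transcript ran from 27.1% for *Twist1* (exact 95% interval 21.3 to 33.7) to 88.1% for *Zic1* (82.9 to 92.2). *Foxs1* was found in 45.7% of mural cells, with 38.9%, 53.3% and 30% on plates 1 to 3. It was detected in 0 of 128 microglia and 0 of 123 neural cells. A limit of 3 cells of each total is 2.34% and 2.44%, and the exact 95% intervals reach 2.84% and 2.95%. At 94.8 CPM, counts scaled so that all transcripts of a sum have the same total, the mural gate was at least 43.3-fold above the microglia floor of 3 transcripts and at least 30.5-fold above the neural one. *Foxd1* was found in 56.2% of mural cells, *Tbx2* in 61.0% and *Tbx18* in 42.4%. For these 5 factors the share was at most 2.34% in microglia, 2.22% in endothelial and 1.63% in neural cells. Mural cells had a median of 6885 transcripts, endothelial cells 6408, neural cells 7717 and microglia 10761. Thinned to equal depth, the mural shares were 12.4% (*Foxs1*), 22.4% (*Foxd1*), 25.7% (*Tbx2*), 15.2% (*Tbx18*) and 7.14% (*Twist1*), and none of the endothelial, microglia and neural gates exceeded 0.889%. Only counting error enters these intervals and limits.

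*Foxc1* was found in 74.8% of mural and 59.6% of endothelial cells, and *Foxf2* in 63.3% and 65.3%. Microglia, which should lack both, gave 0.781% for each. In CPM, *Foxc1* had 269, 252 and 371 in the mural gate of plates 1 to 3 against 181, 207 and 128 in the endothelial gate, and the 3 plates did not overlap. The edgeR difference of 0.43 on the log2 scale (SE 0.24) did not pass the test (adjusted p = 0.25). *Foxf2* had 199, 239 and 151 CPM against 244, 247 and 228, with a difference of -0.37 (SE 0.25, adjusted p = 0.33). At equal depth the mural and endothelial shares were 34.3% and 25.3% for *Foxc1* and 22.4% and 29.8% for *Foxf2*. Both genes were detected in the same cell in 51.9% of mural cells and 47.1% of endothelial cells. The endothelial gate of plate 3, with 13 cells, had a summed 3067 CPM of the 10 mural markers, against 113 CPM in the lowest of the 3 plates.

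*Ebf1* had 532, 615 and 481 CPM in the mural gate and 177, 162 and 114 in the endothelial gate (log2 difference 1.61, SE 0.34, adjusted p = 0.00016). Neural cells ranged more widely, with 224, 30.8 and 87.6 CPM, and *Ebf1* was found in only 17.9% of them. Endothelial and neural cells did not differ beyond this spread (0.55, SE 0.37, adjusted p = 0.25; without plate 1, where *Ebf1* was highest in neural cells, 1.83 and 0.022, within a range of 0.022 to 0.95 over all alternatives). *Nr2f2* had 360, 364 and 385 CPM in the mural gate and 288, 182 and 208 in the neural gate. The mural gate was higher on all 3 plates, by 0.63 on the log2 scale (SE 0.27, adjusted p = 0.063; 0.019 with the plate as a block, and 0.0016 to 0.6 over all alternatives). The shares differed more than the levels, at 81.0% of mural and 33.3% of neural cells.

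*Zic1* had 623, 780 and 605 CPM in the mural gate and 313, 170 and 263 in the neural gate. Mural cells were higher on all 3 plates, by 1.41 on the log2 scale (SE 0.35, adjusted p = 0.001), which is the opposite of the bulk libraries. The call ended with DESeq2 (1.35, adjusted p = 0.32) and without plate 2 (1.0, 0.19), and ran from 9.8e-08 to 0.32 over all alternatives. *Zic1* was found in 88.1% of mural cells and 36.6% of neural cells. Among mural cells it was found in 29 of 35 cells with a transcript of *Tubb3*, *Dcx*, *Neurod6* or *Gad2*, or 82.9% (exact 95% interval 66.4 to 93.4), and in 156 of 175 cells without one, or 89.1% (83.6 to 93.3). The level was 719 CPM in the former and 705 CPM in the latter. Thinned to equal depth, *Zic1* was found in 58.1% of mural and 19.5% of neural cells, *Nr2f2* in 38.1% and 19.5%, and *Ebf1* in 48.6% of mural and 23.1% of endothelial cells.

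**Figure D3:**
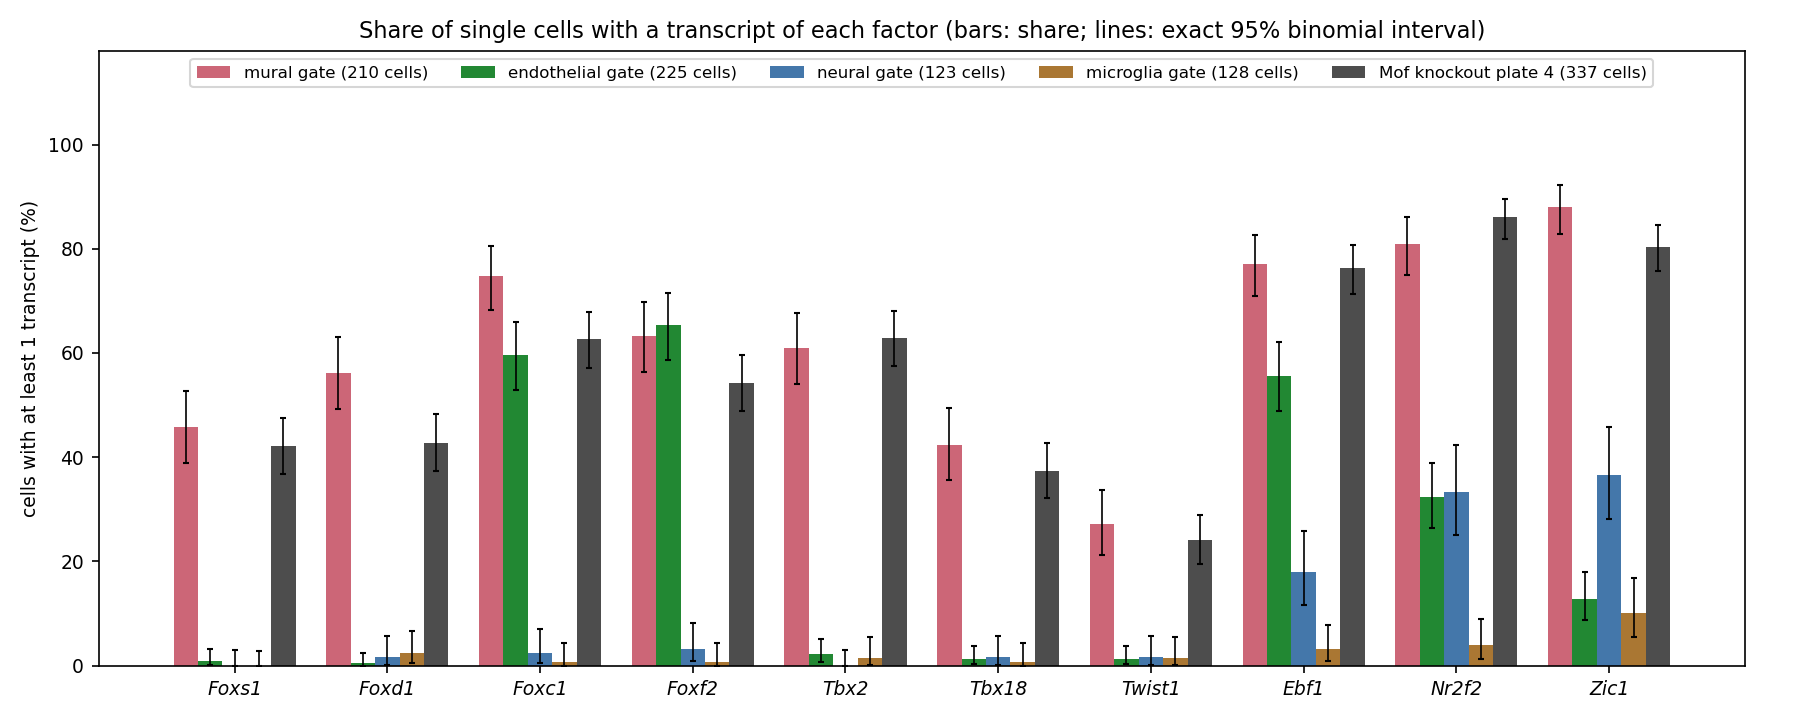
Bars give the share of cells with at least 1 transcript of each factor in 4 wild-type gates and on *Mof* knockout plate 4, and lines exact 95% binomial intervals. *Foxs1*, *Foxd1*, *Tbx2*, *Tbx18* and *Twist1* are below 3% in the other gates shown. In the mural gate and on plate 4 they run from 24.0% to 62.9%.

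Single mural cells held several factors at once. A median of 7 of the 10 was detected per mural cell, against 2 in endothelial, 1 in neural cells and 0 in microglia. After thinning the medians were 3, 1, 0 and 0. All 10 were detected in 7 of 210 mural cells (3.33%), and at most 7 in an endothelial cell, 4 in a neural cell and 3 in a microglia. At least 1 of *Foxs1*, *Foxd1*, *Tbx2*, *Tbx18* and *Twist1* was found in 86.7% of mural cells (exact 95% interval 81.3 to 91.0), and in 4.89% of endothelial, 4.88% of neural and 6.25% of microglia-gate cells. At equal depth these shares were 56.7%, 0.889%, 0.813% and 1.56%.

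Fibroblast markers were widespread in the mural gate, since 179 of 210 cells had a transcript of that list, mostly *Col3a1*, which was found in 71.0% of mural cells. *Dcn* was found in 0.952% and *Lum* in 0 of 210 of them. Cells with a transcript of the list were deeper (median 7143 against 4648 transcripts) and had higher levels of 9 of the 10 factors, where 49.9% of all genes tested were higher, among them *Twist1* (56.2 against 12.2 CPM), *Foxs1* (100.9 against 42.7), *Ebf1* (606 against 311) and *Zic1* (737 against 464). *Nr2f2* was at 359 and 397 CPM. Cells of 1 gate are not replicates, and no test was made.

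**Figure D4:**
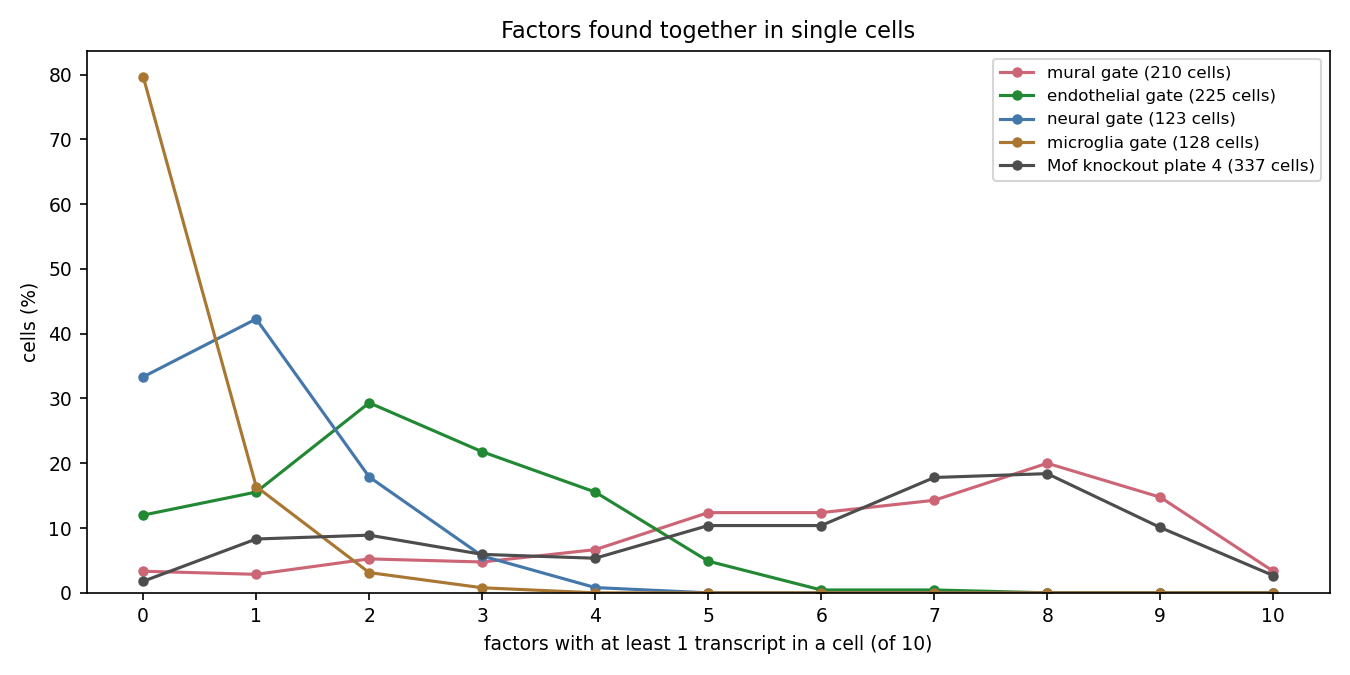
The x axis gives how many of the 10 factors had at least 1 transcript in a cell, and the y axis the percent of cells of each wild-type gate and of *Mof* knockout plate 4. The mural gate is most frequent at 8 factors (20% of cells), plate 4 also at 8 (18.4%), and the endothelial gate at 2 (29.3%).

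On *Mof* knockout plate 4, all 10 factors were detected, at 0.573 to 1.23 times the level of the wild-type mural gate. *Kat8* itself was at 12.7 CPM on plate 4 (exact 95% interval 8.89 to 17.6), 10.4 on plate 5 and 11.2 on plate 6, against 16.8 in the wild-type mural gate. A 3′ tag outside the deleted part would not show the deletion, so this does not check the labels. The 337 cells of plate 4 came in 4 libraries with no gate. *Pdgfrb* was at 579 CPM and *Rgs5* at 5481, beside 549 and 6698 in the wild-type mural gate. The other mural markers of the list were *Cspg4* at 584 against 643 CPM, *Notch3* at 411 against 417, *Kcnj8* at 503 against 601, *Vtn* at 1321 against 1684, *Abcc9* at 875 against 1273, *Higd1b* at 78.3 against 117 and *Anpep* at 32.8 against 37.4. *Des* was higher on plate 4, at 46.6 against 30.9 CPM. The endothelial list summed to 91.0 and the microglia list to 19.8 CPM. The neural list was higher than in the mural gate (1645 against 589 CPM, of which *Fabp7* was 1420 and 438), as was the smooth muscle list (191 against 18.1 CPM). With 1 plate there is no test, and genotype, plate and sort cannot be told apart.

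*Foxs1* was at 91.0 CPM on plate 4 against 94.8 in the wild-type mural gate, a ratio of 0.960 with an exact 95% counting interval of 0.781 to 1.18. *Ebf1* (492 against 575 CPM) was also within the range of the 3 wild-type plates. Of the other 8 factors, 2 were above all 3 plates and 6 below them. Of all 9281 genes tested in the single-cell sums, 25.5% were above and 14.2% below all 3 plates. *Tbx2* (221 against 179 CPM, ratio 1.23, interval 1.07 to 1.42) and *Nr2f2* (417 against 363, ratio 1.15, 1.04 to 1.27) were above the range. *Foxd1* was furthest below, at 103 against 180 CPM (ratio 0.573, 0.484 to 0.677), where the 4 libraries had 134, 87.1, 95.5 and 99.0 CPM and the wild-type plates 187, 162 and 330. *Foxf2* (131 against 219, ratio 0.599, 0.515 to 0.696), *Zic1* (461 against 708, ratio 0.652, 0.601 to 0.707), *Foxc1* (185 against 264, ratio 0.701, 0.615 to 0.799) and *Tbx18* (84.0 against 113.5, ratio 0.740, 0.606 to 0.904) were also below. *Twist1* was at 42.0 against 51.6 CPM, and its interval of 0.608 to 1.09 includes 1. These intervals hold counting error only, and the wild-type plates differed among themselves by up to 2.04 times (*Foxd1*).

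**Figure D5:**
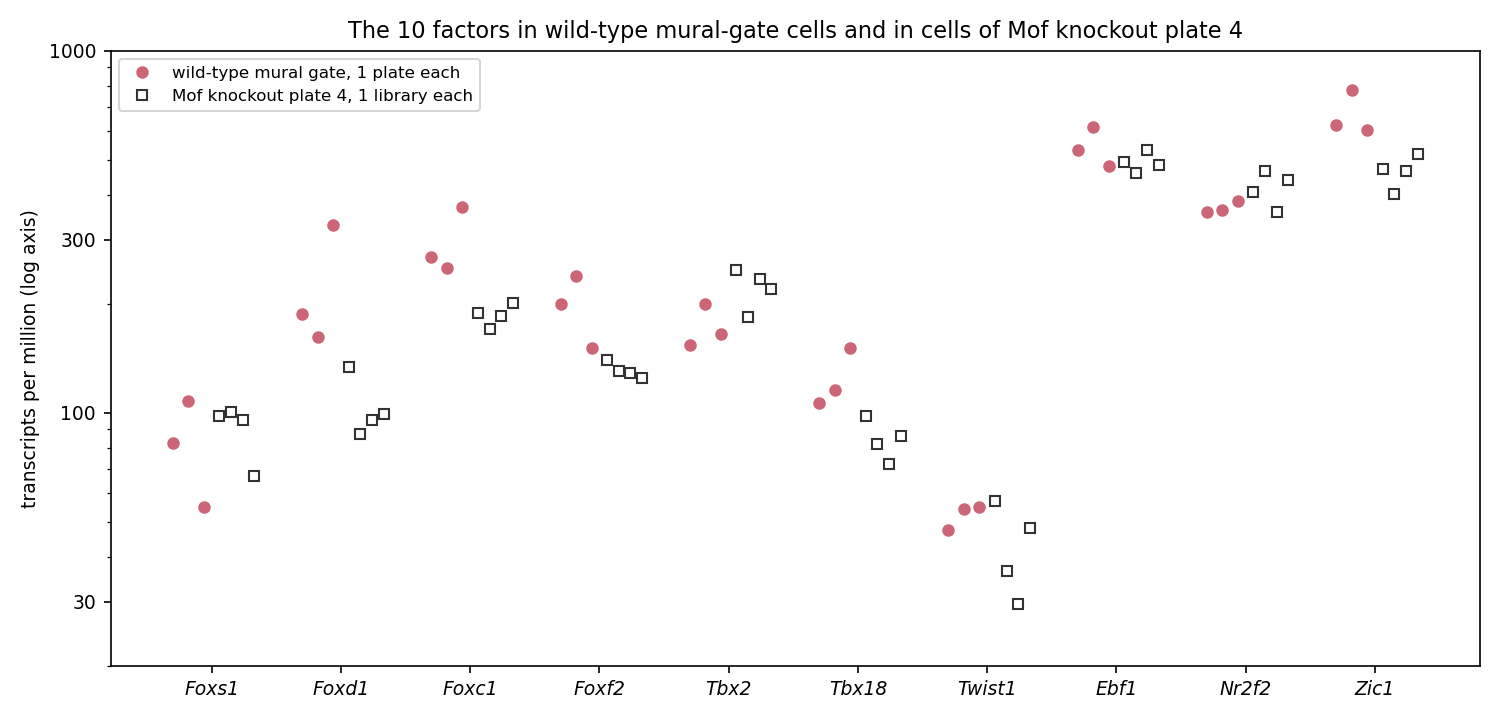
CPM of each factor on a log axis, in the mural gate of 3 wild-type plates (circles) and in the 4 libraries of *Mof* knockout plate 4 (squares). *Foxd1*, *Foxc1*, *Foxf2*, *Tbx18* and *Zic1* libraries of plate 4 lie below all wild-type plates, while *Foxs1*, *Twist1*, *Ebf1*, *Nr2f2* and *Tbx2* overlap with them.

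Plate 4 cells also held several factors at once. At least 1 of the 5 mural-restricted factors was found in 80.1% of plate 4 cells (exact 95% interval 75.5 to 84.2), and a median of 6 of the 10 was detected per cell. On plates 5 and 6 the same shares were 2.05% and 4.29%. *Foxc1* and *Foxf2* were at 115 and 134 CPM on plate 6, whose endothelial list summed to 4257 CPM, and at 0 and 0.577 CPM on plate 5, whose microglia list summed to 2609 CPM.

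Of the other genes of the same families (Fox, Tbx, Ebf, Zic, Twist and Nr2f), 44 passed the filter in the bulk libraries. Of these, 10 were higher in mural cells than in the mean of the others, 11 were lower and 23 did not pass the test, with a median difference of -0.51 (-0.56 with populations at 0 set to their floor). Of all genes, 19.3% were called higher and 22.7% lower. Over 10-fold higher than the mean of log2 values of the other populations were 6 of the 44, against 4.99% of all genes. These were *Tbx15* (499 ± 125 normalized counts in mural cells, log2 difference 7.12), *Tbx20* (113 ± 83.2, 5.93), *Foxq1* (1763 ± 387, 5.92), *Foxc2* (130 ± 20.9, 5.89), *Zic4* (1993 ± 549, 4.81) and *Foxf1* (201 ± 14.95, 4.64). In the single-cell sums, 24 of the family genes were tested, of which 11 were higher in the mural gate (13.5% of all genes) and 3 were lower (8.3% of all genes), with a median difference of 0.48. In the bulk libraries *Foxq1* had its highest mean in endothelial cells (4392 ± 601) and *Zic4* in neural cells (2342 ± 12.6), not in mural cells. *Tbx15*, *Tbx20* and *Foxc2* reached the filter only through their mural values. *Foxc2* and *Foxf1*, the close relatives of *Foxc1* and *Foxf2*, had lower means in endothelial cells, 14.2 ± 12.4 and 61.6 ± 62.2. Where a gene was listed at 0 in a population, as *Tbx20* in neural and endothelial cells, the log2 difference depends on the pseudocount.

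Family members with large negative differences were abundant in endothelial or neural cells. *Foxl2* (948 ± 210 normalized counts), *Tbx1* (1357 ± 820) and the brachyury gene *T* (482 ± 3.27) were highest in endothelial cells. All 3 were at 0 in all mural libraries. *Foxp4* (4005 ± 235) and *Ebf3* (5109 ± 329) were highest in neural cells and at 99.1 ± 75.0 and 48.8 ± 50.8 in mural cells. None of the list's Nr2f genes was over 10-fold higher, and *Twist2* did not pass the filter.

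Of 33 other regulators of mesenchyme and mural cells, 28 were tested. In mural cells 17 were higher and 1, *Srf*, was lower, while 10 did not pass the test, with a median difference of 2.23. Of all genes, 19.3% were called higher, 22.7% lower and 4.99% over 10-fold higher. The 13 over 10-fold higher included *Heyl* (10353 ± 2696 normalized counts, log2 difference 9.14, SE 1.59) and *Hey2* (2500 ± 290, 6.71), which are Notch targets. *Epas1* (10275 ± 2504, 5.54), the hypoxia-inducible factor HIF-2α, was among them by the mean of log2 values. Its highest mean was in endothelial cells (12871 ± 6023). *Prrx2* (319 ± 74.1, 6.40) and *Prrx1* (801 ± 43.1, 3.54) are paired-related homeobox genes of mesenchyme. *Myocd* (119 ± 89.6, 6.25) is the coactivator of smooth muscle genes, and *Myocd* was at 0 in endothelial cells. *Snai2*, *Tcf15*, *Meox2*, *Alx4*, *Snai1* and *Hic1* were also among them, with differences of 3.60 to 4.95. *Snai2* (656 ± 328 and 563 ± 219), *Tcf15* (430 ± 240 and 352 ± 187) and *Hic1* (470 ± 250 and 316 ± 181) were present in both mural and endothelial cells, and the difference between these was not tested.

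For each factor the nearest profiles among all genes tested were found by the root mean square difference of centred log2 values over the 12 libraries. *Twist1* was nearest to *Rbm46* (0.46), *Tnxb* (0.49) and *C1qtnf2* (0.56), *Ebf1* to *Oacyl* (0.51), *Chst2* (0.52) and *Plat* (0.54), and *Nr2f2* to *Plod2* (0.52), *Prom1* (0.59) and *Nrep* (0.62). Of the mural-restricted factors, *Foxs1* was nearest to *Tmem45a* (0.99), *Col3a1* (1.04) and *Dmp1* (1.29), *Tbx18* to *Col6a3* (0.76), *Tmc5* (0.86) and *Rarres2* (0.86), and *Foxd1* to *Gprc5c* (0.72), *Adamts16* (0.85) and *Thbs2* (1.03). *Tbx2* was nearest to *Ch25h* (1.16), *Mylk4* (1.37) and *A4galt* (1.41). *Foxf2* was nearest to the laminin gene *Lama4* (0.51), then *Cd40* (0.73) and *Bgn* (1.03), and *Foxc1* to *Gm43188* (0.82) and *Car2* (0.90). *Zic1* was nearest to *Ptx3* (0.69), *Chn1* (0.70) and *Olig3* (0.80). These are likenesses over libraries that share brains and kits, and were given no test.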

How the data were processed

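Bulk values are the normalized counts the authors deposited, treated here as a linear signal. Multiplied by 1 factor per library they give whole reads, since 100% of 124078 values up to 100 reads came out whole within 0.01. GEO's processing notes name BWA 0.6.2-r126, STAR, featureCounts and DESeq2 and the build mm10 (GRCm38). Which tool made which file, and whether strand was used, is not given in the sources used here. For single cells the authors deposited transcript estimates per well, molecular identifiers corrected for repeated draws out of 4096, a unit entered as other than a plain count.

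Gene positions and exon lengths are from GENCODE vM21, which held 99.6% of the listed genes. Genes with a mean of at least 10 normalized counts were tested with limma 3.58.1 on log2(value + 1) with a trended prior, two-sided, in R 4.3.3. A gene can reach that mean through 1 population alone. All 12 libraries share 1 estimate of the spread per gene, so the SE of a pair of populations also holds the scatter of the others. For genes low in a population, a fold change on that scale depends on the pseudocount and can be above or below the ratio of means. Bulk ratios against single reads or a floor use reads pooled over the 3 libraries and scaled by depth, and also differ from ratios of means. Wells with over 1500 transcripts were summed per gate and plate, rounded and tested with edgeR 4.0.16 (TMM, filterByExpr); its standard errors were taken from the difference and F. Called means an adjusted p under 0.05, and enriched a difference over 10-fold. Alternatives were pseudocounts of 0.5 and 5, no filter, quantile normalization, a replicate block, edgeR and DESeq2 1.42.0 on whole reads, a minimum of 3000 transcripts, thinning to 1500, and each replicate left out. The methods were run on simulated counts with 1 dispersion for all genes and equal means in all populations but mural cells. The uneven scatter of the real libraries was not simulated. Python 3.11.15, scipy 1.17.1, pandas 2.3.3 and matplotlib 3.10.9 were used.

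Libraries of 1 number were taken to come from 1 brain, as the populations were collected together. The residual correlation of such libraries ran from -0.054 to 0.0801 in bulk and, by plate, from -0.034 to 0.0962 in single cells. For unlike numbers it ran from -0.066 to 0.051 in bulk and, for unlike plates, from -0.095 to 0.071 in single cells, so the ranges overlapped. All 23 single-cell libraries use the same 192 well barcodes, and the barcodes that should be empty held 1.06% to 8.78% of transcripts. Doublets were not called, since wells were sorted singly.

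The members, the lists and the tests were chosen with earlier results of these data known. The genes named are the 10 factors, family and mesenchymal genes over 10-fold higher in mural cells, the 2 lowest called genes of each family, and the 3 nearest profiles of each factor. A few genes that this rule names are not reported here. The 23 cells of a PDGFRβ medium or low gate entered no test.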

Additional observations from a re-analysis of the deposited data

Results flagged for a closer look

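*Zic1* went opposite ways in the 2 assays. Mural minus neural cells was -1.52 on the log2 scale in the bulk libraries, lower in 3 of 3 brains, and 1.41 in the single-cell sums, higher on 3 of 3 plates. The difference between the assays was not tested, and in the bulk libraries kit and population cannot be told apart.

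The 23 cells of the PDGFRβ medium or low gate, which entered no comparison, held 8 of the 10 factors above the level of the microglia gate, with counting intervals that do not overlap. Of all 9281 genes tested in the single-cell sums, 19.1% met the same rule. *Nr2f2* was at 464 CPM, *Ebf1* at 165, *Zic1* at 91.4, *Foxf2* at 60.9, *Foxc1* at 54.9, *Tbx2* at 48.7, *Foxd1* at 30.5 and *Foxs1* at 24.4. Beside the mural gate, *Nr2f2* (464 against 363 CPM) had overlapping counting intervals of 365 to 580 and 334 to 394, and was found in 60.9% of these cells against 81.0% of mural cells. The other 7 were at lower levels than in the mural gate. The same cells held *Fabp7* at 6695 and *Rgs5* at 1657 CPM, and the part of mural and neural cells in these values was not tested.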

How the results depend on the processing

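The counts of factors higher in mural cells (10, and 9 over 10-fold in bulk) were the same under all bulk alternatives. Pairwise calls ran from 44 to 49 of 60, with 44 to 47 when a brain was left out, and family calls from 9 to 11. The replicate block by brain gave 10, 9 and 46 and changed no call of a bulk difference. In single cells the count was 10 under every alternative but thinning to 1500 transcripts, which left 6 of 6 tested. With a replicate block by plate it was also 10, and the block changed the call of *Nr2f2* between mural and neural cells and no other call. On plate 4, all 10 factors were above the upper bound of the microglia gate under each setting, while 4 of 20 levels moved, all by thinning, to 113 CPM for *Foxs1*, 71.6 for *Tbx18*, 537 for *Ebf1* and 53.7 for *Twist1*. Of 700 bulk differences under alternatives, 677 kept their side of the threshold, 14 passed it and 9 lost it. Of 532 in single cells, 515 kept it, 4 passed and 13 lost it. The median difference of all bulk genes moved from -0.10 to 0.09 with edgeR on whole reads. No called difference reversed. The cause of these changes was not tested. Of the 10 factors, *Twist1*, *Foxs1* and *Tbx18* had the fewest transcripts in the mural gate, with 80, 147 and 176.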
